A study of Homo sapiens with 12 samples.

Results

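The circadian clock genes and clock output genes examined here were DBP, TEF, PER1, PER2, PER3, CRY1, CRY2, NR1D1, NR1D2 and BHLHE40, in Caco-2, a long-established human cell line of epithelial character derived from a colonic adenocarcinoma. The members were chosen by name with earlier results of these data known, so their p-values do not come from a list fixed in advance. Their probes were selected on detection. A probe counted if its detection p-value fell below 0.05 on every one of the 3 arrays in 1 or more groups. That p-value sets the signal of a probe against negative control beads. The 10 genes had 13 probes on the Illumina HumanHT-12 V4 bead array, and 10 of these probes, for 9 genes, met the rule, among 17413 of 47323 probes in all. PER1 had no probe that met it. Cells were transfected with siRNA and exposed to zinc in 4 groups of 3 arrays. These groups were MTF1 siRNA (ON-TARGETplus) at 150 µM zinc (high), MTF1 siRNA at 3 µM zinc (low), non-targeting control siRNA at 150 µM zinc and non-targeting control siRNA at 3 µM zinc. All groups share the cell line and lipofectamine RNAiMAX, and no group without transfection was analysed here. The duration of zinc exposure and of the knockdown, and any synchronization of the cells, are not stated in the labels used, so each value is a level at 1 unstated time. The series' design text mentions ZNF658 as the target of 2 siRNAs, but MTF1 is the target in the title and in all 12 sample labels, which were followed. Nothing in the labels says that the 3 arrays of a group came from separate cultures, so p-values measure only the spread between these samples, which may be technical.

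The circadian clock is a transcriptional feedback loop in which CLOCK and BMAL1 activate genes through E-boxes, among them the PER and CRY genes, whose proteins repress that activation. NR1D1 and NR1D2 encode REV-ERB nuclear receptors that repress BMAL1, and BHLHE40 (DEC1) encodes an E-box repressor that is also induced by hypoxia and other stresses. DBP and TEF encode PAR bZIP factors that carry clock output to D-box genes, many of them for metabolism and detoxification, and intestinal epithelium has such a rhythm of its own. MTF1 is a zinc-finger factor that senses zinc and activates metallothionein and zinc exporter genes through metal response elements.

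Values are normalized log2 intensities, a change of 1 on this scale being a doubling, and group levels are means ± SD over 3 arrays. The 12 arrays detected 18191 to 19469 probes each. MTF1, the targeted gene, averaged 5.72 ± 0.48 with MTF1 siRNA and 6.70 ± 0.13 with control siRNA at high zinc, and 5.90 ± 0.33 with MTF1 siRNA and 6.61 ± 0.15 with control siRNA at low zinc (SD, n = 3). The difference passed the test at high zinc (-0.98, limma adjusted p = 0.0442, a call kept on leaving out only 2 of the 12 arrays) but not at low zinc (-0.71, limma adjusted p = 0.207). Over both concentrations the MTF1 difference was -0.85 (limma adjusted p = 0.0185), a call kept on leaving out any 1 of the 12 arrays. SLC30A1, the zinc exporter ZnT1, rose by 2.15 with zinc under MTF1 siRNA (limma adjusted p = 5.69e-08) and by 2.64 under control siRNA (limma adjusted p = 1.81e-08). Its difference between MTF1 and control siRNA was -0.57 at high zinc (limma adjusted p = 0.0198) and -0.08 at low zinc (limma adjusted p = 0.746). Over both concentrations it was -0.33 (limma adjusted p = 0.0379). Leaving out 1 array in turn, the high-zinc call was kept for 8 of the 12 arrays and the call over both for 2. All 8 epithelial markers were detected on every array, and their summed normalized intensity was 41786 to 42268 at high zinc and 39466 to 45359 at low zinc with MTF1 siRNA, and 44831 to 50648 at high zinc and 39898 to 40009 at low zinc with control siRNA. Of the 7 fibroblast markers, COL1A1, COL1A2, COL3A1, LUM and VIM were detected, and DCN and PDGFRB were not. The summed normalized intensity of those 5 detected genes moved with zinc, at 1547 to 1803 at high zinc and 1022 to 1170 at low zinc with MTF1 siRNA, and at 1701 to 1747 at high zinc and 1194 to 1345 at low zinc with control siRNA. Of 6 immune markers only CD68, CD14 and LYZ were detected, and they summed to 892 to 938 at high zinc and 1153 to 1327 at low zinc with MTF1 siRNA, and to 966 to 1054 at high zinc and 1140 to 1214 at low zinc with control siRNA. Of 4 endothelial markers only CDH5 was detected, at 69 to 92 at high zinc and 37 to 57 at low zinc with MTF1 siRNA, and at 58 to 72 at high zinc and 44 to 54 at low zinc with control siRNA. The part of these markers in the zinc results below was not tested.

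The promoters of the 3 genes with a probe past the threshold in any comparison are shown because they differ in the clock motif they carry. Each run is 300 bases of the RefSeq GRCh38.p14 assembly, 5′ to 3′ on the gene's strand, with the annotated start at base 251. Capitals mark an E-box (CACGTG) or an E′-box (CACGTT, here on the other strand). BHLHE40 is at chr3:4979187-4979486 on the plus strand, DBP at chr19:48637330-48637629 on the minus strand and CRY1 at chr12:107093500-107093799 on the minus strand.
BHLHE40: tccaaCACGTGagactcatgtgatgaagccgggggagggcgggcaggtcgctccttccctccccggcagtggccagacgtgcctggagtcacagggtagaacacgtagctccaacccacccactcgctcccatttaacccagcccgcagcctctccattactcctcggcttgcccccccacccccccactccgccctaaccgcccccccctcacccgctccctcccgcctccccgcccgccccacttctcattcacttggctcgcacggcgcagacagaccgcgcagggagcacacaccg
DBP: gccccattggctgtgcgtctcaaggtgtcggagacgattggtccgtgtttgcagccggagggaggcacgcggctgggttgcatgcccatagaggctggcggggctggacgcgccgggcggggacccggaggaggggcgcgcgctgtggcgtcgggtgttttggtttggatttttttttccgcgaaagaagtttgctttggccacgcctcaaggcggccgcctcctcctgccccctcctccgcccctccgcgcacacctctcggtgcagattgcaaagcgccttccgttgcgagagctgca
CRY1: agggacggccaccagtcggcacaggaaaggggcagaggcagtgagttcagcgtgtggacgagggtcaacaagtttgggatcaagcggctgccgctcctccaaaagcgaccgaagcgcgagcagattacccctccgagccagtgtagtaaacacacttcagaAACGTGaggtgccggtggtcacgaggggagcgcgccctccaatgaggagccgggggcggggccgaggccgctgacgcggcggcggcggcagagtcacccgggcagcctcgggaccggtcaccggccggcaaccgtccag
The E-box of BHLHE40 lay 245 bases before its start and the E′-box of CRY1 89 bases before its start. The DBP window held none of the 7 motifs searched.

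Both strands of 14 RefSeq windows, which cover all 10 genes, were searched for these motifs. Some genes have more than 1 window, so windows are counted. An E-box was in 5 of the 14, of BHLHE40, NR1D2, PER1 and TEF, against 7.256% of all 35116 windows of this length. An E′-box was in 4 of the 14, of CRY1, CRY2, NR1D1 and PER2, against 5.342% of all windows. A D-box (TTATGTAA or TTACGTAA) was in 3 of the 14, of NR1D2, PER2 and PER3, against 1.011% of all windows. CRY2 alone held the ROR element TAGGTCA, in 1 window, which 1.848% of all windows held. A metal response element (TGCACNC or TGCGCNC) was in 4 of the 14, of NR1D1, NR1D2, PER1 and PER3, against 29.551% of all windows. In PER1, 1 of its 2 matches overlapped its E-box. No member window held the cAMP response element TGACGTCA, present in 1.848% of all windows, or the heat shock element GAANNTTC, present in 6.769%. A match describes these letters only. Neither BHLHE40 nor DBP nor CRY1 held a metal response element in the window shown.

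**Figure D1:**
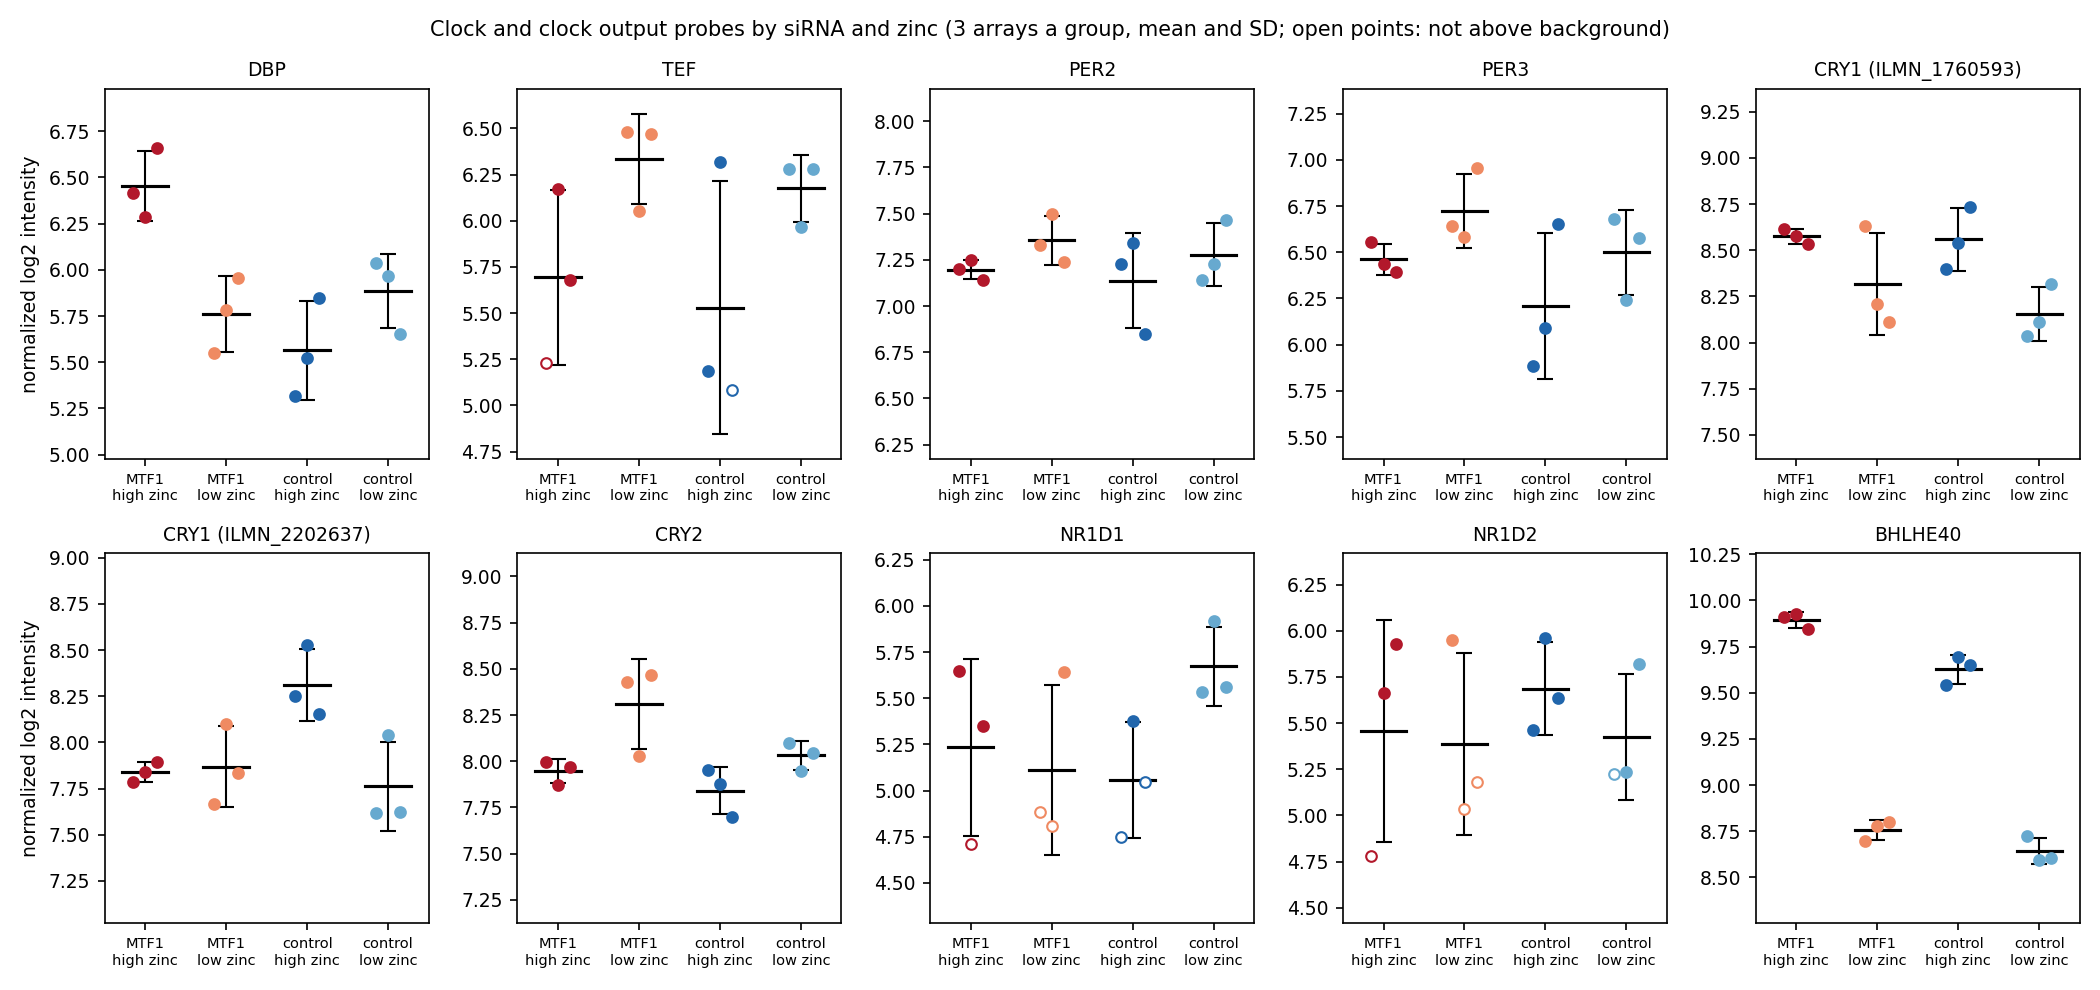
Normalized log2 intensity of the 10 clock and clock output probes that met the detection rule, 1 panel a probe, with the 4 siRNA and zinc groups along the x axis. Points are the 3 arrays of a group, open where the probe was not above background, lines and bars are the mean and SD, and every panel spans the same log2 range. BHLHE40 lay between 9.54 and 9.93 on all high-zinc arrays and between 8.60 and 8.80 on all low-zinc arrays.

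BHLHE40 rose with zinc by 1.14 under MTF1 siRNA and by 0.99 under control siRNA, DBP rose by 0.69 under MTF1 siRNA, and 1 of the 2 detected CRY1 probes rose by 0.55 under control siRNA. Under MTF1 siRNA, 2 of the 10 entering clock probes passed the test, BHLHE40 and DBP, both upward, where 15% of the 17413 entering probes passed in either direction. Under control siRNA, 2 of 10 passed, BHLHE40 and 1 of the CRY1 probes, both upward, where 17.2% passed. No clock probe was called lower in either comparison. Since these counts are close to the background, they say nothing particular of the clock genes as a group. The median log2 change of the 10 probes was 0.02 under MTF1 siRNA and -0.16 under control siRNA, beside -0.01 and 0.00 over all entering probes. In these lysates, fewer cells that express a gene and less RNA per cell cannot be told apart.

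BHLHE40, the E-box repressor (chr3:4979437-4985323), had 9.91, 9.93 and 9.85 with MTF1 siRNA at high zinc, against 8.70, 8.78 and 8.80 with MTF1 siRNA at low zinc. With control siRNA it had 9.54, 9.69 and 9.65 at high zinc, against 8.72, 8.60 and 8.61 at low zinc. All 6 high-zinc arrays lay above all 6 low-zinc arrays, and the spread within a group was at most 0.08. The rise was 1.14 (SE 0.09, 95% confidence interval 0.945 to 1.33) with MTF1 siRNA, or 2.20-fold, with a limma adjusted p of 3.93e-06. It was 0.99 (SE 0.09, interval 0.795 to 1.18) with control siRNA, or 1.98-fold, with a limma adjusted p of 2.15e-05. By size of rise it ranked 197 of 17413 probes with MTF1 siRNA and 213 with control siRNA. The rises under the 2 siRNAs differed by 0.15 (interval -0.12 to 0.42, limma adjusted p = 0.574). At high zinc its level was 0.27 higher with MTF1 siRNA than with control siRNA (interval 0.076 to 0.457), and the arrays did not overlap, but the difference missed the threshold over all probes (limma adjusted p = 0.117). The order of its groups was thus MTF1 siRNA at high zinc, control siRNA at high zinc, MTF1 siRNA at low zinc and control siRNA at low zinc, and for each siRNA the high-zinc level was above the low-zinc level past the test, while the difference between siRNAs missed it at either concentration. Without background correction the siRNA difference at high zinc was 0.23 and passed (limma adjusted p = 0.0435).

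DBP, the output factor named for the D-box (chr19:48630030-48637379), was dim, with raw intensities of 139.6 to 213.4, but detected on all 12 arrays. It had 6.42, 6.29 and 6.66 with MTF1 siRNA at high zinc, against 5.55, 5.78 and 5.96 with MTF1 siRNA at low zinc. With control siRNA it had 5.32, 5.53 and 5.85 at high zinc, against 6.04, 5.97 and 5.65 at low zinc. The 3 arrays with MTF1 siRNA at high zinc were the highest of all 12, and the other groups overlapped one another. With MTF1 siRNA the rise with zinc was 0.69 (SE 0.17, interval 0.333 to 1.05), with a limma adjusted p of 0.0144. With control siRNA the difference was -0.32 (interval -0.682 to 0.0392), which did not pass (limma adjusted p = 0.203). The difference between these zinc changes was 1.01 (SE 0.23, interval 0.505 to 1.52), and it did not pass over all probes (limma adjusted p = 0.161). Its zinc call was lost without replicate 1 of MTF1 siRNA at low zinc (0.59, limma adjusted p = 0.0612) or replicate 3 of MTF1 siRNA at high zinc (0.59, limma adjusted p = 0.0618). TEF, its PAR bZIP relative (chr22:41367455-41399326), had 5.23, 6.17 and 5.68 with MTF1 siRNA at high zinc, against 6.48, 6.05 and 6.47 at low zinc. With control siRNA TEF had 5.19, 6.32 and 5.08 at high zinc, against 6.28, 5.97 and 6.28 at low zinc. The TEF groups overlapped, and 1 array in each high-zinc group was not above background. TEF thus met the detection rule only through the low-zinc groups, where its means were higher. The TEF differences were -0.64 with MTF1 siRNA (interval -1.31 to 0.0303, limma adjusted p = 0.194) and -0.65 with control siRNA (interval -1.32 to 0.0253, limma adjusted p = 0.170). Without replicate 2 of control siRNA at high zinc, its only array there above 6, the second of these differences was -1.04 and passed (limma adjusted p = 0.0191).

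**Figure D2:**
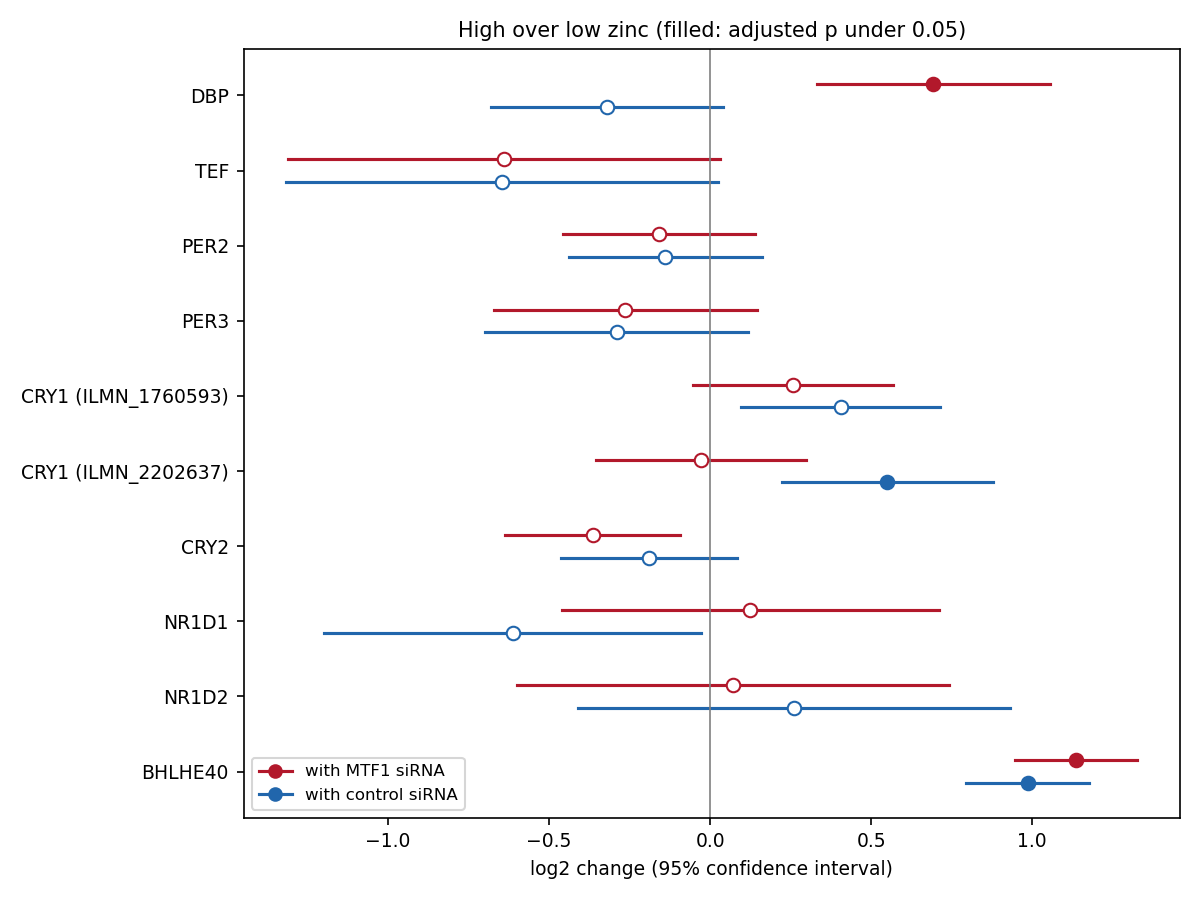
Log2 change from zinc (high over low, x axis) of each entering clock probe (y axis), with MTF1 siRNA in red above control siRNA in blue. Points are limma estimates, filled where the adjusted p was under 0.05, and lines are 95% confidence intervals. BHLHE40 rose by 1.14 with MTF1 siRNA and 0.99 with control siRNA, and the DBP estimates lay on opposite sides of 0.

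The cryptochromes, which repress CLOCK and BMAL1, gave one call that 2 probes of the same gene did not share. CRY1 (chr12:106991364-107093549) on probe ILMN_2202637 had 7.79, 7.84 and 7.89 with MTF1 siRNA at high zinc, against 7.67, 8.10 and 7.84 with MTF1 siRNA at low zinc. With control siRNA that probe had 8.25, 8.53 and 8.15 at high zinc, against 7.62, 8.04 and 7.63 at low zinc. The 3 control arrays at high zinc were the highest of the 12, and the other groups overlapped. Its rise was 0.55 with control siRNA (SE 0.15, interval 0.222 to 0.877, limma adjusted p = 0.0269), while with MTF1 siRNA the difference was -0.03 (interval -0.356 to 0.299, limma adjusted p = 0.930). The difference between the zinc changes was -0.58 (interval -1.04 to -0.115), which did not pass (limma adjusted p = 0.244). The call was lost without replicate 1 (limma adjusted p = 0.10) or replicate 3 (0.0888) of control siRNA at low zinc, or replicate 2 of control siRNA at high zinc (0.0907). The other CRY1 probe, ILMN_1760593, had 8.61, 8.58 and 8.53 with MTF1 siRNA at high zinc, against 8.63, 8.21 and 8.11 at low zinc. With control siRNA it had 8.40, 8.54 and 8.74 at high zinc, against 8.04, 8.11 and 8.32 at low zinc. On that probe the control groups did not overlap but the difference of 0.40 missed the threshold (interval 0.0951 to 0.714, limma adjusted p = 0.0707), and with MTF1 siRNA it was 0.26 (limma adjusted p = 0.261). It passed under control siRNA without replicate 1 of MTF1 siRNA at low zinc (limma adjusted p = 0.0327). Both probes gave a positive estimate under control siRNA, and their difference from each other was not tested.

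CRY2 (chr11:45847118-45883244) gave negative zinc estimates under both siRNAs and no call. It had 7.99, 7.87 and 7.97 with MTF1 siRNA at high zinc, against 8.43, 8.03 and 8.47 with MTF1 siRNA at low zinc. With control siRNA it had 7.95, 7.87 and 7.70 at high zinc, against 8.10, 7.95 and 8.05 at low zinc. With MTF1 siRNA the arrays at the 2 zinc concentrations did not overlap. The difference was -0.36 with MTF1 siRNA (interval -0.636 to -0.0923, limma adjusted p = 0.0721) and -0.19 with control siRNA (limma adjusted p = 0.319). Without replicate 2 of MTF1 siRNA at low zinc the first was -0.50 and passed (limma adjusted p = 0.0148).

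The PER genes, the other repressor arm, showed no zinc change past the test. PER3 (chr1:7784291-7845177) had 6.56, 6.44 and 6.39 with MTF1 siRNA at high zinc, against 6.64, 6.58 and 6.95 with MTF1 siRNA at low zinc. With control siRNA PER3 had 5.89, 6.09 and 6.65 at high zinc, against 6.68, 6.24 and 6.58 at low zinc. The arrays with MTF1 siRNA were narrowly apart and those with control siRNA overlapped, and the differences were -0.26 (limma adjusted p = 0.395) with MTF1 siRNA and -0.29 (limma adjusted p = 0.313) with control siRNA. PER2 (chr2:238244044-238300065) on its detected probe, ILMN_1738095, lay between 6.85 and 7.50 on all 12 arrays. Its differences were -0.16 with MTF1 siRNA (interval -0.458 to 0.14) and -0.14 with control siRNA (interval -0.438 to 0.16). PER1 (chr17:8140472-8152404) had 1 probe, ILMN_1653125, which was above background on 0 of 12 arrays, with raw intensities of 104.8 to 130.3 and a lowest detection p-value of 0.167. Of the further PER2 probes, ILMN_1668708 was detected on 0 of 12 arrays and ILMN_1740915 on 2 of 12, with a lowest detection p-value of 0.0184.

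The REV-ERB genes were close to background, and both met the detection rule through 1 group only. NR1D1 (chr17:40092793-40100589) was detected on 7 of 12 arrays, and on all 3 only with control siRNA at low zinc, where its highest detection p-value was 0.00527. NR1D2 (chr3:23945286-23980617) was detected on 8 of 12 arrays, and on all 3 only with control siRNA at high zinc, where its highest detection p-value was 0.0093. The PER2 probe ILMN_1740915 did not meet the rule. It was detected on 1 of 3 arrays with MTF1 siRNA at low zinc and on 1 of 3 with control siRNA at low zinc. NR1D1 had 5.65, 4.71 and 5.35 with MTF1 siRNA at high zinc, against 4.88, 4.81 and 5.64 at low zinc, and 4.75, 5.38 and 5.05 with control siRNA at high zinc, against 5.53, 5.92 and 5.56 at low zinc. The control groups did not overlap and the difference between them was -0.61 (interval -1.20 to -0.0271), which did not pass (limma adjusted p = 0.138). NR1D1 met the rule only through the higher of these groups, so the rule itself favours a difference of this sign. NR1D2 lay between 4.78 and 5.96 on the 12 arrays, with group means of 5.46 and 5.39 at high and low zinc with MTF1 siRNA and of 5.69 and 5.43 at high and low zinc with control siRNA. Its groups overlapped in both zinc comparisons.

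**Figure D3:**
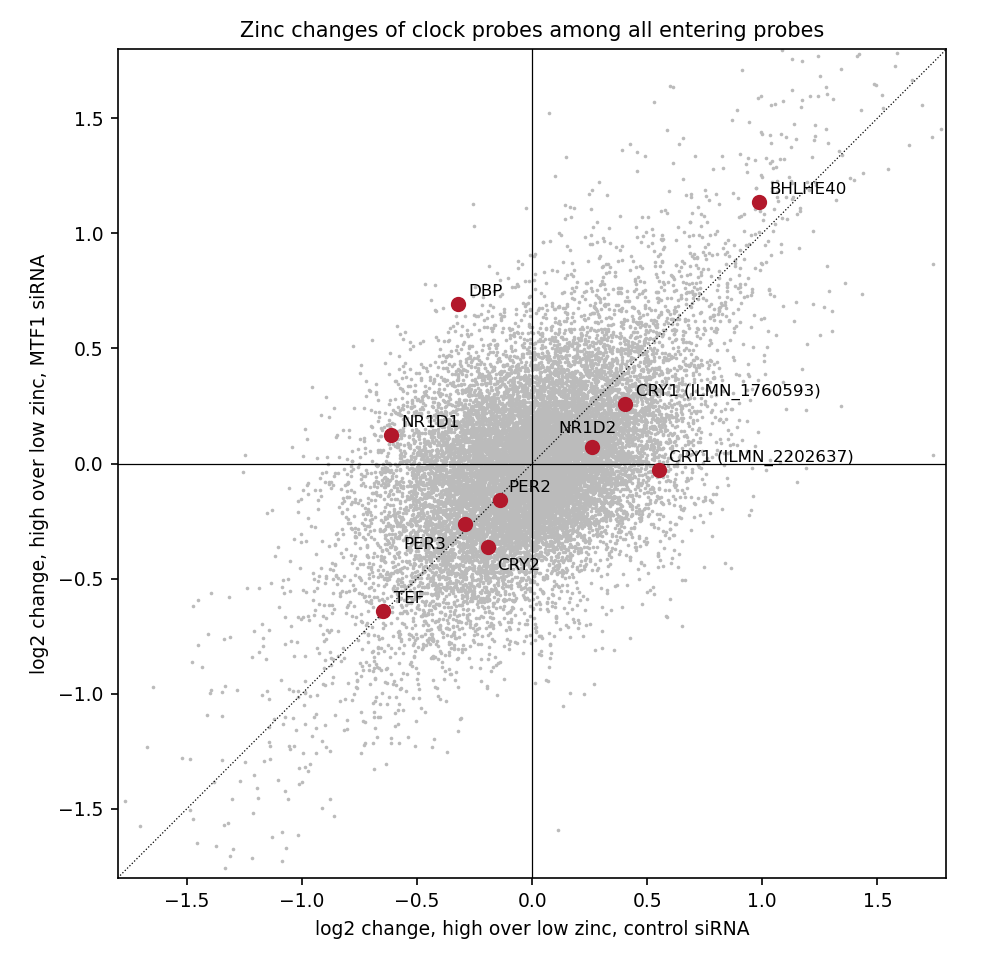
Log2 zinc change (high over low) with MTF1 siRNA on the y axis and with control siRNA on the x axis, for all 17413 entering probes in grey and the clock probes in red, with 87 probes outside the axes and a dotted line where both changes are equal. BHLHE40 lay at 1.14 on the y axis and 0.99 on the x axis, DBP at 0.69 and -0.32, and CRY1 on ILMN_2202637 at -0.03 and 0.55.

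The siRNA comparisons asked whether MTF1 knockdown moved clock transcripts at a fixed zinc concentration. At high zinc DBP was 0.89 higher with MTF1 siRNA (6.45 ± 0.19) than with control siRNA (5.56 ± 0.27), and it was the sole clock probe of 10 to pass, where 2.37% of all entering probes passed. Its interval was 0.53 to 1.25, the 3 arrays of each siRNA did not overlap, and the limma adjusted p was 0.0233. The call was lost without any one of the 3 arrays with MTF1 siRNA at high zinc or without replicate 2 of control siRNA at high zinc, with limma adjusted p from 0.0587 to 0.0766 and changes from 0.79 to 0.97. CRY1 on ILMN_2202637 was lower on every array with MTF1 siRNA than on every control array at high zinc, but the difference of -0.47 (interval -0.799 to -0.144) did not pass (limma adjusted p = 0.110). On ILMN_1760593 the same difference was 0.02. These high-zinc values of DBP, CRY1 and BHLHE40 also enter the zinc comparisons above, so the 2 kinds of comparison share arrays.

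At low zinc 0 of the 10 clock probes passed limma's test, where 0.103% of all entering probes did. Of the 10, 1 probe, CRY2, had an unadjusted p under 0.05, as did 2489 of all 17413 entering probes. CRY2 was 8.31 ± 0.24 with MTF1 siRNA and 8.03 ± 0.08 with control siRNA, a difference of 0.28 (limma adjusted p = 0.338), and these arrays overlapped. DBP was 5.76 ± 0.21 with MTF1 siRNA and 5.89 ± 0.20 with control siRNA, a difference of -0.12 (interval -0.485 to 0.237). NR1D1 was 5.11 ± 0.46 with MTF1 siRNA and 5.67 ± 0.22 with control siRNA, a difference of -0.56 (limma adjusted p = 0.369). It met the detection rule only through this control group, the higher of the 2. With MTF1 siRNA at low zinc only 1 of 3 arrays was above background. The rule itself thus favours a difference of this sign. Averaged over both zinc concentrations 0 of 10 passed limma's test, against 2.26% of all entering probes. Of the 10, 2 probes, DBP (0.38) and BHLHE40 (0.19), had an unadjusted p under 0.05, as did 3380 of all 17413 entering probes. For the difference between the zinc changes under the 2 siRNAs, 0 of 10 passed limma's test, against 0.023% of all entering probes. DBP (1.01) and CRY1 on ILMN_2202637 (-0.58) had an unadjusted p under 0.05, as did 2745 of all 17413 entering probes.

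**Figure D4:**
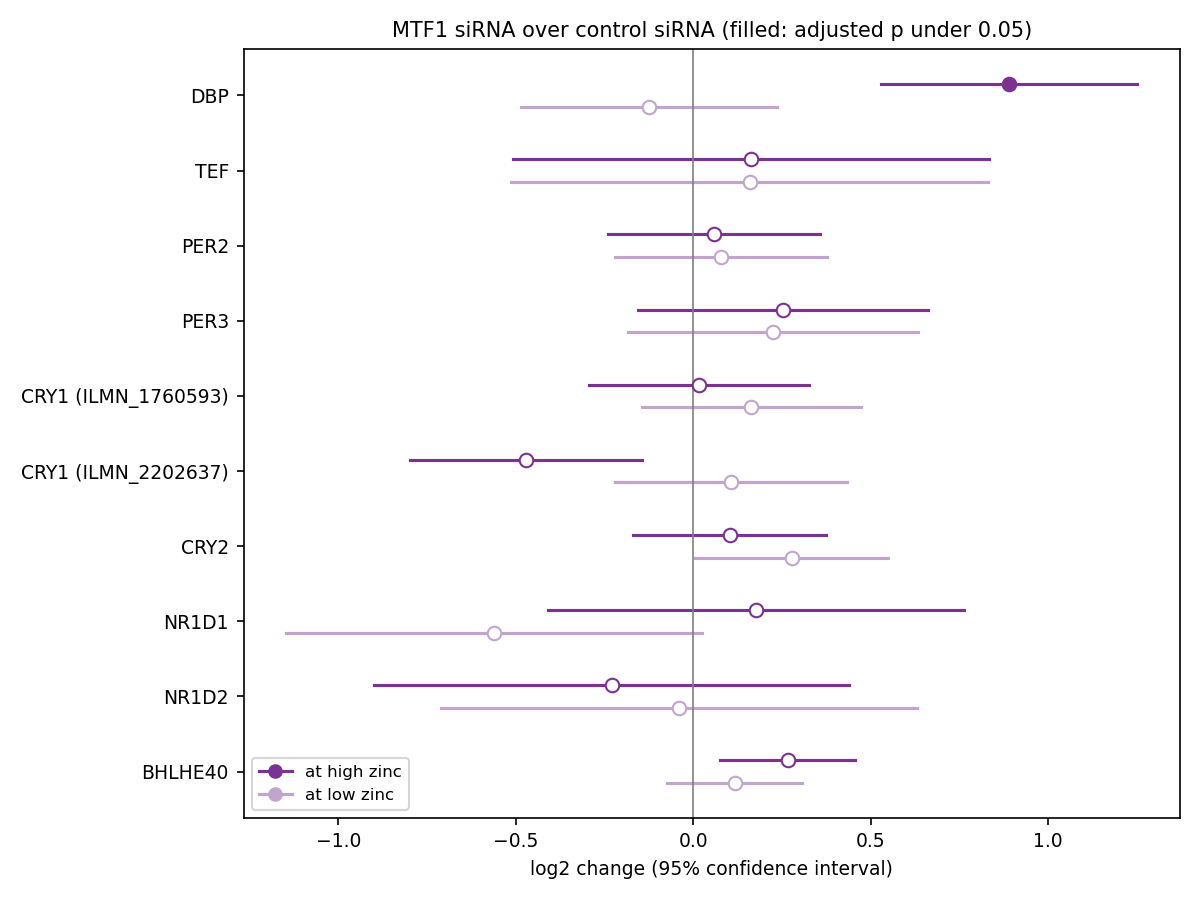
Log2 change from MTF1 siRNA (over control siRNA, x axis) of each entering clock probe (y axis), at high zinc in dark purple above low zinc in light purple. Points are limma estimates, filled where the adjusted p was under 0.05, and lines are 95% confidence intervals. DBP at high zinc, at 0.89, is the filled point.

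The rest of the clock pathway was read from 3 further lists, each gene by its brightest entering probe. Several genes, among them CLOCK and NAMPT, had a further entering probe that these counts leave out. Of 12 other core clock genes, 4 were measured (BMAL1, CLOCK, NFIL3 and TIMELESS), and limma called 0 of them in either zinc comparison, where 15% of all entering probes passed under MTF1 siRNA and 17.2% under control siRNA, with 0 at an unadjusted p under 0.05. Of all 17413 entering probes, 4991 under MTF1 siRNA and 5602 under control siRNA had an unadjusted p under 0.05 with zinc. BMAL1, the partner of CLOCK, differed by 0.24 with zinc under MTF1 siRNA and by 0.26 under control siRNA (limma adjusted p = 0.372 and 0.309). CLOCK differed by 0.14 under MTF1 siRNA and 0.03 under control siRNA. NFIL3, the repressor at D-boxes, differed by 0.02 under MTF1 siRNA and 0.17 under control siRNA. TIMELESS, best known for its role at the replication fork, differed by 0.03 under MTF1 siRNA and -0.01 under control siRNA. Of 12 genes for clock kinases and protein turnover, 8 were measured. Under MTF1 siRNA 1 of 8 passed with zinc, where 15% of all entering probes did, and under control siRNA limma called 0 of 8, where 17.2% did, with 0 at an unadjusted p under 0.05. The gene that passed was GSK3B, a kinase that phosphorylates several clock proteins, which rose by 0.38 under MTF1 siRNA (SE 0.10, limma adjusted p = 0.0290) beside 0.21 under control siRNA (limma adjusted p = 0.178). GSK3B averaged 9.44 ± 0.12 at high zinc and 9.06 ± 0.04 at low zinc with MTF1 siRNA. Its call was lost without replicate 1, 2 or 3 of MTF1 siRNA at low zinc or replicate 1 or 2 of MTF1 siRNA at high zinc (limma adjusted p from 0.0561 to 0.107). It was also lost with no filter on dim probes (limma adjusted p = 0.0810), with only the 2 groups compared (0.0507) and with the replicate number as a block (0.0550).

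Of 10 genes reported as clock outputs, 8 were measured, and those that passed with zinc all rose. Under MTF1 siRNA 1 of 8 passed and under control siRNA 4 of 8, where 15% and 17.2% of all entering probes passed, with median log2 changes over the 8 of 0.30 and 0.37 beside -0.01 and 0.00 over all entering probes. CDKN1A, the cyclin-dependent kinase inhibitor p21, rose by 1.43 with zinc under MTF1 siRNA (limma adjusted p = 2.85e-06) and by 1.03 under control siRNA (limma adjusted p = 6.99e-05). It was also 0.61 higher with MTF1 siRNA (9.91 ± 0.14) than with control siRNA (9.30 ± 0.12) at high zinc (limma adjusted p = 0.0202), a call lost without replicate 2 or 3 of either siRNA at high zinc (limma adjusted p from 0.0526 to 0.0813). KLF10, a repressor of the KLF family, rose by 0.75 under control siRNA on its brightest probe (limma adjusted p = 0.00114, or by 0.28 and still past the threshold without background correction), beside 0.26 under MTF1 siRNA (limma adjusted p = 0.151). Its probes differed: ILMN_1659122 rose by 0.77 under MTF1 siRNA and 0.81 under control siRNA, and ILMN_1667594 passed in neither. NAMPT, the enzyme of NAD+ salvage, rose by 0.42 under control siRNA (limma adjusted p = 0.0343), and NFE2L2, the antioxidant factor NRF2, by 0.43 (limma adjusted p = 0.0499). The NAMPT call was lost without replicate 1 or 2 of control siRNA at low zinc or replicate 1 or 3 of control siRNA at high zinc (limma adjusted p from 0.0889 to 0.130), and that of NFE2L2 was kept on leaving out only 2 of the 12 arrays. Of 10 other settings, 8 kept the NAMPT call and 5 kept the NFE2L2 call. Over both zinc concentrations CDKN1A was 0.41 higher (limma adjusted p = 0.0185, or 0.0507 without replicate 2 of MTF1 siRNA at high zinc) and KLF10 0.35 higher (limma adjusted p = 0.0451, kept on leaving out only 2 of the 12 arrays and in 3 of 9 other settings, and 0.13 higher without background correction) with MTF1 siRNA than with control siRNA. This KLF10 value is for its brightest probe and is a mean of unlike differences. They were 0.60 at low zinc (limma adjusted p = 0.0865) and 0.11 at high zinc (limma adjusted p = 0.632), and neither passed. On its brightest entering probe, no gene of the 3 lists fell past the threshold in any of the 6 comparisons.

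**Figure D5:**
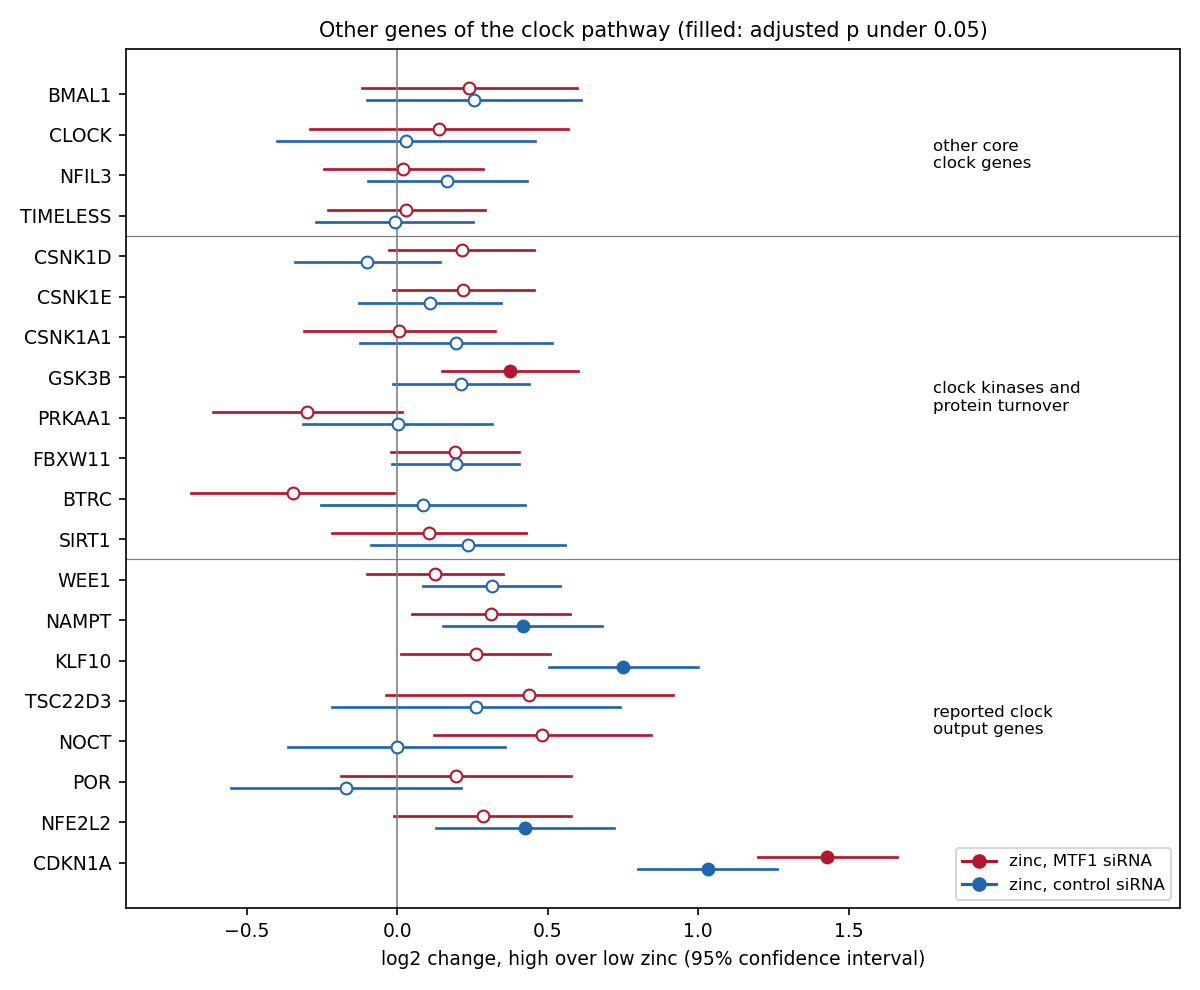
Log2 zinc change (high over low, x axis) of the measured genes of 3 further clock lists (y axis), with MTF1 siRNA in red above control siRNA in blue, filled where the limma adjusted p was under 0.05, with 95% confidence intervals. CDKN1A, at 1.43 with MTF1 siRNA and 1.03 with control siRNA, stands farthest to the right, and the 4 other core clock genes have no filled point.

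The genes most like each clock gene over the 12 arrays were found among 10575 other named genes by Pearson correlation, given as a description since the arrays form 4 groups and share their processing. For BHLHE40 they were APOBEC3B (r = 0.992), ATF3 (0.992) and ADM (0.991). APOBEC3B, a cytidine deaminase gene, averaged 9.99 at high zinc and 8.92 at low zinc with MTF1 siRNA, and 9.80 at high zinc and 8.72 at low zinc with control siRNA. ATF3, a stress-induced bZIP factor, averaged 10.58 at high zinc and 8.70 at low zinc with MTF1 siRNA, and 10.18 at high zinc and 8.66 at low zinc with control siRNA. ADM, the adrenomedullin gene, averaged 11.72 at high zinc and 9.78 at low zinc with MTF1 siRNA, and 11.45 at high zinc and 9.59 at low zinc with control siRNA. For DBP they were PFKP (0.885), a glycolytic phosphofructokinase, ATF5 (0.868) and IFRD2 (0.857). For CRY1 on its brighter probe they were ZNF431 (0.918), the osmotic stress factor NFAT5 (0.913) and the cell cycle factor E2F4 (0.913).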

How the data were processed

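Caco-2 RNA was hybridised to 12 arrays, grouped by the sample labels. Per the labels' protocols, Trizol RNA was checked for integrity and 200 ng was amplified with biotin. The deposited table held bead intensity values, not normalized per the file headers, with a detection p-value per array per the file headers. A further deposited matrix held the authors' processed log2 values, whose ranks within an array were those of the raw intensities and whose array medians were all 7.03 to 2 decimals. How the authors normalized them is not stated in the labels. How either table's images were processed is not stated in the labels.

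Intensities were background-corrected (normexp on the detection p-values, offset 16), quantile normalized and brought to log2 with neqc of limma 3.58.1 (R 4.3.3). Gene symbols came from the platform's probe table: 30113 probes had 1 symbol, 8 had several and 17202 had none. Of these symbols, 30074 were matched by gene identifier and given in their current form. The 17413 probes that met the detection rule were fitted with 1 mean per group over all 12 arrays (lmFit, eBayes), and p-values, two-sided, were adjusted by Benjamini-Hochberg over all of them. The threshold was 0.05. Confidence intervals are 95% and come from the moderated fit. The number of arrays limits the precision.

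The members, the other lists (each gene by its brightest entering probe) and the naming rule were chosen with earlier results of these data known. Named were all member probes, MTF1 and SLC30A1 as checks, and the 3 genes most correlated with each member. From the other lists, genes past the threshold in a comparison were named, all where 6 or fewer passed. The measured other core clock genes were named too, though none passed. Replicate numbers did not pair the samples. The tests were checked on simulated data. Promoter windows and coordinates are from RefSeq, GRCh38.p14.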

Additional observations from a re-analysis of the deposited data

How the results depend on the processing

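BHLHE40 stayed past the threshold in both zinc comparisons under all 10 other settings and all 12 omissions of 1 array, with changes of 0.95 to 1.16 over the settings with MTF1 siRNA and 0.81 to 1.04 with control siRNA. Under control siRNA, clock probes past the threshold with zinc numbered 1 with no filter on dim probes, 1 with 1 probe per gene and 1 with only the 2 groups compared, in place of 2. Among all probes these settings called 1795, 2573 and 2065, in place of 2989. For MTF1 siRNA at high zinc the clock probes called numbered 3 with no background correction, 2 with the authors' log2 values, 2 with a mean-variance trend and robust eBayes, 0 with no filter and 0 with only the 2 groups compared, in place of 1. Among all probes these settings called 1286, 1262, 1172, 60 and 52, in place of 412, so the clock counts rose and fell with the total. The filter changes how many probes are tested, and the setting of 1 probe per gene leaves out the called CRY1 probe, ILMN_2202637. The other causes were not tested. Leaving out 1 array in turn, the clock counts ranged from 1 to 3 with zinc under MTF1 siRNA, 1 to 3 under control siRNA and 0 to 1 for MTF1 siRNA at high zinc, and were 0 to 0 for MTF1 siRNA at low zinc, over both concentrations and for the difference between zinc changes. The counts over all probes ranged, in the same order, over 1786 to 2662, 1819 to 2989, 34 to 425, 0 to 20, 190 to 516 and 1 to 9. Same-numbered samples did not deviate together (r from -0.10 to 0.16 over 18 pairs, 1 over 0.1), and a replicate block left the member counts at 2, 2, 1, 0, 0 and 0 in the 6 comparisons. With the block the calls of GSK3B with zinc under MTF1 siRNA (limma adjusted p = 0.0550), NFE2L2 with zinc under control siRNA (0.0800), MTF1 for MTF1 siRNA at high zinc (0.0745), and KLF10 (0.0581) and SLC30A1 (0.0643) for MTF1 siRNA over both concentrations were lost. Over all probes the block called 2345, 2658, 167, 4, 314 and 1.

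Without background correction the DBP rise with zinc under MTF1 siRNA was 0.25, still past the threshold, and its siRNA difference at high zinc was 0.31. Its raw intensity was at most 213.4. The DBP siRNA call was lost with no filter (limma adjusted p = 0.0636) and with only the 2 groups (0.0702), and the CRY1 call likewise (0.0711 with no filter, 0.0625 with only the 2 groups). The high-zinc siRNA calls of MTF1, SLC30A1 and CDKN1A were also lost with no filter (limma adjusted p = 0.114, 0.0587 and 0.0587). With only the 2 groups they were lost too (0.0898, 0.0727 and 0.0747), and that of SLC30A1 with arrays centred on their median (0.0533). For MTF1 siRNA over both concentrations, 6 of 9 other settings kept the SLC30A1 call and 8 of 9 the CDKN1A call. CRY2 with zinc under MTF1 siRNA passed with no background correction (-0.26), the authors' values and the trend, as did CRY1 on ILMN_1760593 under control siRNA. CRY1 on ILMN_2202637 passed for MTF1 siRNA at high zinc with those same 3 settings, and BHLHE40 there with no background correction (0.23, limma adjusted p = 0.0435). Over the other settings, probes called among all numbered 1773 to 3227 and 1795 to 3688 for zinc with MTF1 and control siRNA, 52 to 1286 for MTF1 siRNA at high zinc, 0 to 165 at low zinc, 144 to 958 over both and 1 to 184 for the difference between zinc changes. No called change of a named gene turned its sign under any setting run.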

Other observations

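For the clock genes with no call, the 3 genes most like each over the 12 arrays, by Pearson correlation as a description, were as follows. For PER3 they were KAZALD1 (r = 0.951), C21orf58 (0.948) and HNRNPUL1 (0.898). For CRY2 they were RRP36 (0.928), IRX2 (0.924) and AP3S2 (0.919). For PER2 they were FJX1 (0.847), TBX2 (0.846) and ARPC3 (0.845). For TEF they were ZNF341 (0.889), RPS6KA1 (0.876) and BNIPL (0.875). For NR1D1 they were ITGAE (0.929), RFESD (0.884) and LINC02909 (0.876), and for NR1D2 they were CCP110 (0.886), NUP98 (0.814) and RNF166 (0.812).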
